A study of Mus musculus with 4 samples.

Results

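The mitochondrial respiratory chain was examined through 82 genes, taken from 19421 genes measured in whole mouse retina. They were chosen by gene symbol: the subunit families Nduf (complex I, 35 genes), Sdh (complex II, 4), Uqcr with Cyc1 (complex III, 9), Cox4 to Cox8 (complex IV, 17) and Atp5 (complex V, 17). By this rule Cox7a2l, a factor that joins complexes III and IV, and Ndufa4l2, a relative of Ndufa4, are counted by name only. The knockout mice were Nrl flox/flox with CAG-CreERTM, and the control mice were Nrl flox/+ with CAG-CreERTM, so that every animal carried the tamoxifen-dependent Cre, driven by the broadly active CAG promoter, and a floxed allele, and the controls kept an intact one. All animals received 4-hydroxytamoxifen by daily injection into the peritoneum on postnatal days 42 to 44, and their retinas were taken on postnatal day 63, 19 days after the last dose. There were 2 arrays per genotype, each hybridised with pooled RNA of 4 retinas from 2 animals, and values are log2 signals of 1 probe set per gene. Nrl encodes the transcription factor that specifies and maintains rods.

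Complexes I to IV pass electrons from NADH and succinate to oxygen and, at complexes I, III and IV, pump protons across the inner mitochondrial membrane. Complex V, the ATP synthase, uses the return of these protons to make ATP. The subunits are encoded by nuclear genes, apart from a small set of core proteins encoded by mitochondrial DNA. In photoreceptors the mitochondria lie packed in the inner segment, where they supply the ion pumps that sustain the dark current, and rods are by far the most abundant cells of the mouse retina.

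The arrays were alike in scale, with medians between 5.99 and 6.04, and Pearson's r between arrays across probe sets ran from 0.987 to 0.990. Nrl itself measured 7.57 and 7.05 in knockout against 8.21 and 8.13 in control. The log2 difference of -0.86, with an SE of 0.18, ran in the direction of the labels but was not called (adjusted p = 0.289 by limma). Of the 14 rod markers measured, 13 had both knockout arrays below both controls, beside 18.4% of all genes. That list includes Nrl itself and was chosen with earlier results of these data known. Gnat1, the rod transducin α subunit, fell by 3.01 on the log2 scale (SE 0.13, adjusted p = 0.00586 by limma). Xist, expressed from the inactive X, was at 4.07 and 10.66 in knockout replicates 1 and 2 and at 4.09 and 10.47 in control replicates 1 and 2. The replicate number thus separated the sexes in both groups, and differences within each replicate are given for the medians of the complexes and for the subunits at their ends.

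No respiratory chain subunit changed beyond the correction over all genes. The 82 log2 fold changes (knockout minus control) lay between -0.19 for Cyc1 and 0.26 for Ndufv3 and Cox8a, or 0.879-fold to 1.20-fold, and their median was 0.03, against -0.003 over all genes. The limma count was 0 of 82 at an adjusted p under 0.05, where 0.201% of all genes were called (0.139% higher and 0.0618% lower), and the smallest adjusted p was 0.655. At an unadjusted p under 0.05 there was 1 subunit, Ndufv3, beside 7.07% of all genes (3.71% higher and 3.37% lower). Of the 82, 52 lay above 0 and 30 below, beside 49.0% of all genes above 0. Without control replicate 2 the count was 30 above and 52 below. Both knockout arrays lay above both controls in 15 of the 82 and below in 14, beside 17.0% and 18.4% of all genes. The groups overlapped in the other 53. The fold changes of the subunits had an SD of 0.10, against 0.19 over all genes and 0.19 over the 9711 genes in the upper part of the signal range, which holds 79 of the 82. Mean levels on the 4 arrays ran from 9.11 to 9.22 for those 79 and from 7.31 to 7.35 for the 9711. These sets were not matched for signal. In bulk retina, fewer cells of a type and less RNA per cell cannot be told apart.

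A missed threshold does not show equality, so the 95% interval of each difference is the more informative value. All 82 intervals lay within 1.5-fold of no change, against 87.8% of all genes and 91.9% of those in the upper part of the signal range. The lowest bound was 0.708-fold, for the testis isoform Cox8c, and the highest was 1.47-fold, for Ndufs5, an accessory subunit of complex I. Each interval covers its own subunit, not all 82 at once. The intervals widen with fewer arrays, and not all of the 82 stayed within 1.5-fold when 1 array was left out. The median of the 82 was -0.02 in replicate 1 and 0.05 in replicate 2, so its sign was not shared by both pairs of pools.

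**Figure D1:**
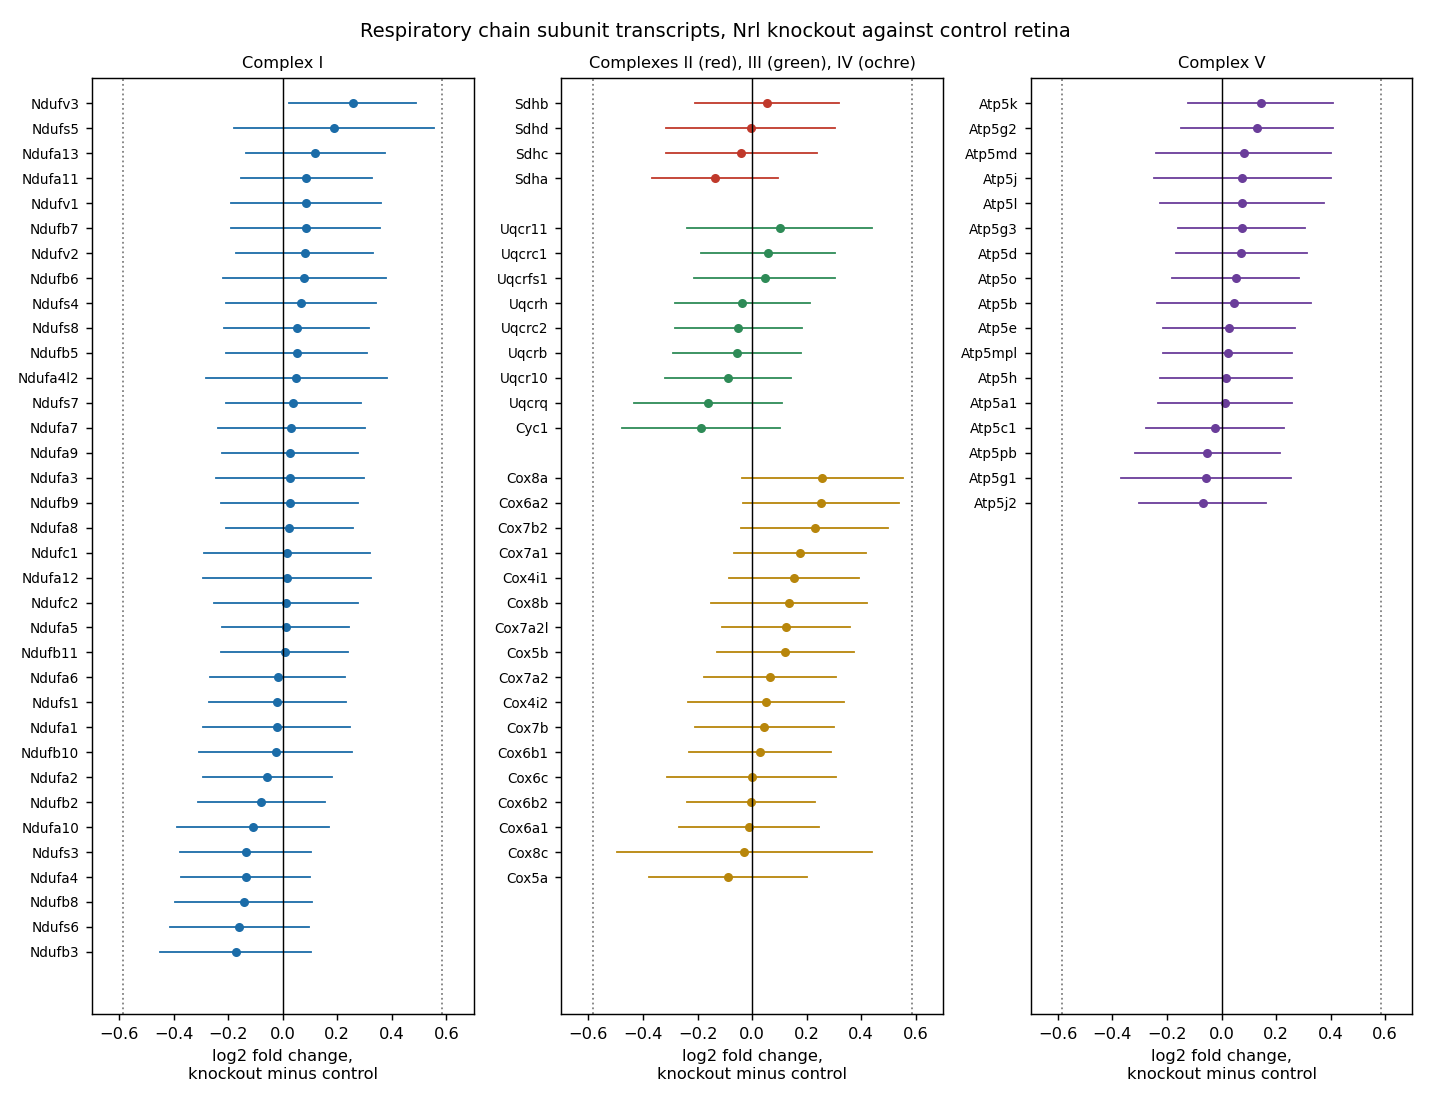
Log2 fold change (knockout minus control, x axis) of each of the 82 subunits, grouped by complex. Points are limma estimates, bars their 95% intervals, and dotted lines a 1.5-fold change in either direction. Every interval lies between the dotted lines, and only that of Ndufv3 lies apart from 0.

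Complex I, which oxidises NADH, had 23 subunits above 0 and 12 below, and the median was 0.02 (-0.03 within replicate 1, 0.04 within replicate 2). Ndufv3, an accessory protein of the NADH-oxidising arm, measured 8.996 and 8.977 in knockout, against 8.734 and 8.726 in control. The groups were apart by far more than the gap within either. The log2 difference was 0.26 with an SE of 0.10 (unadjusted p = 0.0350, adjusted p = 0.655 by limma), and it was 0.26 in replicate 1 and 0.25 in replicate 2. At the other end stood Ndufb3, an accessory protein of the membrane arm, at 8.44 and 8.24 in knockout and 8.55 and 8.47 in control, a difference of -0.17 (SE 0.11, limma adjusted p = 0.846), with -0.11 in replicate 1 and -0.24 in replicate 2. Its knockout arrays lay below the controls, yet the nearest knockout and control pools were closer to each other than the knockout pools were.

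The catalytic core of complex I ran from -0.14 to 0.09. Ndufs1, the largest iron-sulphur protein of the core, was at 8.97 and 8.90 in knockout and 9.01 and 8.89 in control, and the groups overlapped. Its log2 fold change was -0.02, with an interval of -0.27 to 0.23. Ndufv1, which binds NADH and the flavin, was at 8.13 and 7.93 in knockout and 7.96 and 7.92 in control, at 0.09 (interval -0.19 to 0.36). The 6 nuclear core subunits measured had a median of 0.05 (4 above 0, 2 below), and the 29 other complex I genes had 0.02. Among core proteins, Ndufs3 had the largest difference, with 9.04 and 8.96 in knockout against 9.11 and 9.15 in control (-0.14, SE 0.10, limma adjusted p = 0.864). A further probe set of the gene gave -0.20.

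In complex I, 4 genes had both knockout arrays above both controls (Ndufv3, Ndufa13, Ndufa11 and Ndufv2) and 7 had both below (Ndufa2, Ndufb2, Ndufs3, Ndufa4, Ndufb8, Ndufs6 and Ndufb3). Over all genes such a separation upward was found in 17.0% and downward in 18.4%. The 11 of 35 stand beside 35.4% of all genes in either direction. Members listed for this separation were chosen after their values were seen.

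Complex II, the succinate dehydrogenase that also works in the citric acid cycle, had 1 subunit above 0 and 3 below, and its median was -0.02 (-0.07 in replicate 1 and -0.02 in replicate 2). Sdha, its catalytic flavoprotein, was at 9.18 and 9.20 in knockout, against 9.33 and 9.32 in control. The groups did not overlap and each pair was tight. The log2 difference was -0.14, with an SE of 0.10 (adjusted p = 0.857 by limma), made of -0.15 in replicate 1 and -0.13 in replicate 2. Sdhb, the iron-sulphur subunit, was at 7.44 and 7.46 in knockout and 7.49 and 7.30 in control, a difference of 0.05 with overlapping groups (-0.05 in replicate 1, 0.16 in replicate 2). The membrane anchors Sdhc and Sdhd stood at -0.04 and -0.00.

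Complex III, which passes electrons from ubiquinol to cytochrome c, had 3 subunits above 0 and 6 below. Its median was -0.05 (-0.06 in replicate 1 and -0.05 in replicate 2). Both knockout arrays lay below both controls in 5 of its 9 genes (Uqcrc2, Uqcrb, Uqcr10, Uqcrq and Cyc1) and above in 0, beside 18.4% and 17.0% of all genes. Cyc1, the haem protein cytochrome c1, was at 7.67 and 7.42 in knockout, against 7.75 and 7.71 in control. The pools of knockout differed from each other more than the nearest knockout and control pools did. Its log2 difference of -0.19, with an SE of 0.12 (adjusted p = 0.840 by limma), was the lowest of all subunits with all 4 arrays. It was -0.08 in replicate 1 and -0.29 in replicate 2, and without knockout replicate 2 it was -0.064, where Ndufb8 was lowest at -0.20.

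The Rieske protein and the core protein Uqcrc1 lay on the other side of 0. Uqcrfs1, the iron-sulphur subunit, was at 8.57 and 8.42 in knockout and 8.47 and 8.43 in control (0.05, interval -0.21 to 0.30). Uqcrc1 was at 7.51 and 7.62 in knockout and 7.53 and 7.49 in control (0.06, interval -0.19 to 0.30). Both had overlapping groups. Uqcr11, a small subunit, had the highest value of the complex, 0.10, with 7.36 and 7.24 in knockout against 7.37 and 7.03 in control (-0.008 in replicate 1, 0.21 in replicate 2). Here the control pools alone differed by 0.34, more than any difference between genotypes in this complex.

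Complex IV, the cytochrome c oxidase that reduces oxygen, had the highest median of the complexes with all 4 arrays, 0.07, with 12 genes above 0 and 5 below (0.08 in replicate 1 and 0.11 in replicate 2). Without knockout replicate 2 it was 0.074, below the 0.082 of complex V. Both knockout arrays lay above both controls in 7 of 17 genes (Cox8a, Cox6a2, Cox7b2, Cox7a1, Cox4i1, Cox7a2l and Cox5b) and below in 0, beside 17.0% and 18.4% of all genes. Without the 7 tissue-restricted forms described below, the count above was 4 of 10 genes. Cox7a2l is counted by name only, and a further probe set of it gave -0.03. Ndufa4, placed in complex I by its symbol but found in complex IV of mammals, had both knockout arrays below both controls. With Ndufa4 and Ndufa4l2 counted in complex IV, the median of the complex was 0.051, and without Cox7a2l it was 0.059. None of the 17 passed the test, and the smallest unadjusted p was 0.0757, for Cox6a2. Cox8a was at 9.31 and 9.19 in knockout, against 9.11 and 8.88 in control. The groups did not overlap, though the control pools were 0.23 apart. The log2 difference was 0.26 with an SE of 0.12 (adjusted p = 0.752 by limma), made of 0.20 in replicate 1 and 0.32 in replicate 2.

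Cox4i1, the regulatory subunit that binds ATP, was at 10.14 and 10.13 in knockout and 10.02 and 9.94 in control. The difference was 0.15 (SE 0.10, limma adjusted p = 0.840). Cox5a, a subunit on the matrix side, had the lowest value of the complex, -0.09, with 9.67 and 9.55 in knockout and 9.81 and 9.59 in control and overlapping groups (-0.14 in replicate 1, -0.04 in replicate 2). Cox6c, chosen after its values were seen for its bright probe set, was at 12.16 and 12.06 in knockout and 12.25 and 11.97 in control (-0.00).

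Several complex IV subunits come in a widely expressed form and a form restricted to certain tissues. The forms of heart and skeletal muscle are Cox6a2, Cox7a1 and Cox8b. Cox6a2 was at 6.45 and 6.70 in knockout, against 6.33 and 6.31 in control. Its log2 difference was 0.25 with an SE of 0.12 (adjusted p = 0.752 by limma), while its wide counterpart Cox6a1 stood at -0.01. Cox7a1 was at 7.23 and 7.18 in knockout and 6.99 and 7.08 in control, a difference of 0.18, against 0.07 for Cox7a2. Cox8b was at 6.01 and 6.21 in knockout and 6.05 and 5.90 in control, with overlapping groups and a difference of 0.13, against 0.26 for Cox8a. Whether such levels stand above background was not tested, since no detection values were used.

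The testis forms gave no common direction. Cox7b2 was at 3.67 and 3.52 in knockout and 3.30 and 3.43 in control (0.23, limma adjusted p = 0.763), Cox6b2 stood at -0.00 and Cox8c at -0.03. Cox8c was at 5.40 and 5.15 in knockout, between the 5.04 and 5.57 of the control pools. Cox4i2, the form linked to lung and to low oxygen, had 0.05, and so had Ndufa4l2, a hypoxia-induced relative of Ndufa4. Ndufa4 itself, named for complex I but found in complex IV of mammals, was at 11.49 and 11.46 in knockout and 11.64 and 11.58 in control (-0.14, SE 0.10, limma adjusted p = 0.862). Without its 7 tissue-restricted forms, complex IV had a median of 0.06 over 10 genes (-0.00 in replicate 1 and 0.13 in replicate 2).

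Complex V had 13 subunits above 0 and 4 below. Its median was 0.05 (0.01 in replicate 1 and 0.05 in replicate 2, and -0.020 without control replicate 2), and its spread was the narrowest of the 5 complexes, an SD of 0.06 over 17 genes. Atp5b, the catalytic β subunit, was at 10.87 and 10.67 in knockout and 10.79 and 10.66 in control. Atp5a1, the α subunit, was at 9.48 and 9.38 in knockout and 9.45 and 9.39 in control. The groups overlapped in both, with log2 fold changes of 0.05 (interval -0.23 to 0.33) and 0.01 (interval -0.23 to 0.26). The catalytic F1 head had a median of 0.03 over 5 genes, and the membrane part and stalk of the enzyme 0.06 over 10. Atp5md and Atp5mpl, at 0.08 and 0.02, were in neither list.

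At the ends of complex V stood Atp5k, subunit e of the membrane part, and Atp5j2, subunit f. Atp5k was at 10.90 and 10.73 in knockout, against 10.71 and 10.63 in control (0.14, SE 0.11, limma adjusted p = 0.870), with 0.18 in replicate 1 and 0.10 in replicate 2. Atp5j2 was at 11.31 and 11.33 in knockout, against 11.39 and 11.39 in control (-0.07, SE 0.10, limma adjusted p = 0.953), with -0.08 in replicate 1 and -0.06 in replicate 2. Neither pair of groups overlapped. The genes Atp5g1, Atp5g2 and Atp5g3, which encode the same mature c subunit of the rotor ring, stood at -0.06, 0.13 and 0.07. Both knockout arrays lay above both controls in 4 of the 17 genes (Atp5k, Atp5g3, Atp5d and Atp5o) and below in 1, beside 17.0% and 18.4% of all genes.

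**Figure D2:**
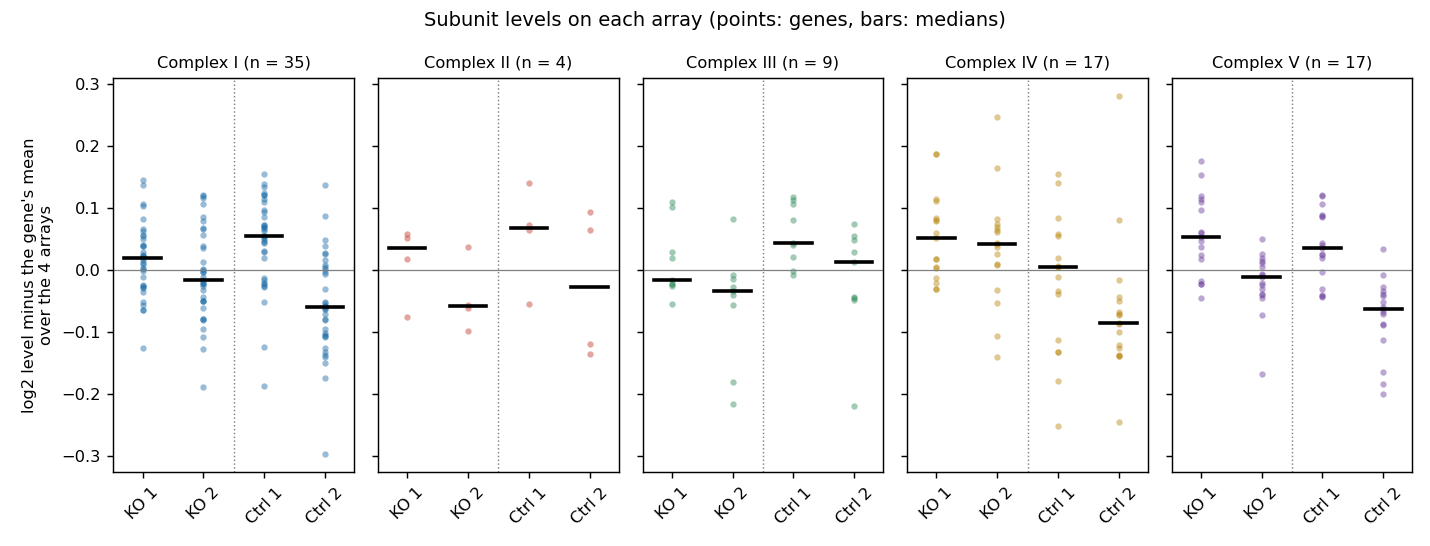
Level of each subunit on each array as the log2 difference from that gene's mean over the 4 arrays (y axis), by complex and array (x axis, knockout pools KO 1 and KO 2, then control pools Ctrl 1 and Ctrl 2). Points are genes and bars medians. The points of the knockout and control arrays overlap in every complex.

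Over the 82 genes, the median difference between the control pools exceeded that between genotypes. In the knockout group 56 of 82 subunits (68.3%) were higher in replicate 1 than in replicate 2, beside 47.1% of all genes and 53.1% of those in the upper part of the signal range, with a median difference of 0.03. In the control group 67 (81.7%) were, beside 47.7% and 60.1%, with a median of 0.09. The mean level of the 82 was 9.05 and 9.01 in knockout, against 9.05 and 8.96 in control. Control replicate 2 was the lowest of these, and without it the median fold change was -0.03 in place of 0.03, while without control replicate 1 it was 0.07.

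**Figure D3:**
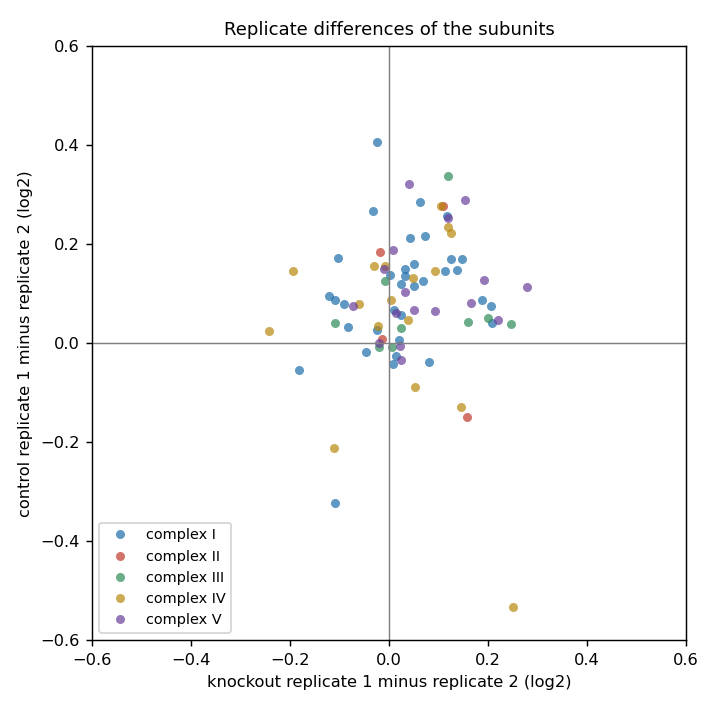
Difference between replicates 1 and 2 (log2) of each subunit in the knockout pools (x axis) and in the control pools (y axis), coloured by complex. Most points lie right of the vertical line, 56 of 82, and above the horizontal line, 67 of 82.

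Probe sets were multiple for 15 of the 82 genes. Many of these genes have processed copies elsewhere in the genome, and hybridisation to copies was not tested. In 6 of the 15 (Atp5h, Atp5l, Atp5md, Cox7a2l, Ndufb11 and Uqcrb) the probe sets had log2 fold changes of both signs. The widest gap was 0.38, in Atp5l, subunit g of the ATP synthase, whose 5 probe sets ran from -0.06 to 0.32, with 0.08 at the one with the highest mean. Uqcrb, a small subunit of complex III, had -0.06, 0.04 and -0.02.

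Further mitochondrial genes outside the symbol rule gave 0 calls as well, beside 0.201% of all genes. Of 41 assembly factors measured, 22 lay above 0 and 19 below (median 0.02), and 5 had an unadjusted p under 0.05, 3 higher and 2 lower, beside 3.71% and 3.37% of all genes. Ndufaf6, an assembly factor of complex I, had the smallest p of them, with 6.48 and 6.49 in knockout against 6.16 and 6.18 in control (0.32, SE 0.10, limma adjusted p = 0.562). Sdhaf4, an assembly factor of complex II chosen after its value was seen, was at 7.89 and 7.59 in knockout and 8.44 and 8.03 in control (-0.49, SE 0.17, limma adjusted p = 0.636). Both sets of values separated the groups, and both intervals lay apart from 0.

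Of 15 partners of the chain, such as cytochrome c and the adenine nucleotide carriers, 7 lay above 0 and 8 below (median -0.01). The list also names Ndufab1, an Nduf gene that the symbol rule does not take. Higd2a, a factor that helps complexes join into supercomplexes, had the smallest p, at 10.16 and 10.17 in knockout and 9.95 and 9.93 in control (0.22, SE 0.10, limma adjusted p = 0.722). The 12 coenzyme Q synthesis genes had a median of 0.06, and Coq3, a methyltransferase of that pathway, stood at 0.17. Of the subunits encoded by mitochondrial DNA only COX2, a core protein of complex IV, was measured here. It was at 12.11 and 12.03 in knockout and 12.14 and 11.77 in control (0.12, interval -0.23 to 0.46), and the groups overlapped.

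In the citric acid cycle and pyruvate dehydrogenase, 8 of 16 genes lay above 0 and 8 below (median -0.01). Suclg2 had the smallest p, with 5.73 and 5.98 in knockout and 5.604 and 5.404 in control (0.35, SE 0.13, limma adjusted p = 0.655). It encodes the GTP-forming β subunit of succinyl-CoA ligase. The ATP-forming partner Sucla2, chosen after its value was seen, stood at -0.27. Among 20 genes of the outer membrane, import and inner membrane shape, 4 lay above 0 and 16 below (median -0.03), and Immt, which organises the cristae, was at 8.47 and 8.53 in knockout and 8.82 and 8.71 in control (-0.27, SE 0.10, limma adjusted p = 0.665).

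Of 15 transcription regulators of mitochondrial genes, 4 were above 0 and 11 below (median -0.09). Both knockout arrays lay below both controls in 8 of them, beside 18.4% of all genes, and above in 0. No regulator was called, and 3 had an unadjusted p under 0.05, all lower, beside 3.37% of all genes. Esrrb, an oestrogen-related receptor made in rods, was at 5.70 and 5.89 in knockout, against 6.53 and 6.21 in control (-0.57, SE 0.14, limma adjusted p = 0.421). The others were chosen after their values were seen. Ppargc1a, the coactivator PGC-1α, was at 8.86 and 8.79 in knockout and 9.25 and 9.12 in control (-0.36, SE 0.10, limma adjusted p = 0.521), and Esrrg was at 8.001 and 8.052 in knockout and 8.37 and 8.34 in control (-0.33, SE 0.10, limma adjusted p = 0.558). Nrf1 and Gabpa, which encode NRF1 and the DNA-binding subunit of GABP, stood at -0.08 and -0.12, and Esrra at -0.00.

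The factors behind the Nrf1, Gabpa and Yy1 genes act on many subunit promoters, which are shown here with their motif letters. The windows are RefSeq sequences of build GRCm38.p6, each from 250 bases before to 50 bases after an annotated start, and 66 of the 82 genes had one. The NRF1 core CGCATGCG was found in 9 of 66 genes (13.6%), against 3.02% of 15225 measured genes. The ETS letters CCGGAAG, read by the GABP factor, were found in 17 (25.8%) against 13.7%, and the YY1 letters AAGATGGC in 10 (15.2%) against 3.81%. At least 1 of these was present in 30 subunit genes (45.5%), against 18.9% of measured genes. The letters AAGGTCA, bound by oestrogen-related receptors, were in 10.6% against 4.47%. For TAATCC, bound by the photoreceptor factor CRX, the shares were 9.09% and 7.52%, and for TGCTGA, part of the site of Nrl and other Maf proteins, 12.1% and 20.1%. TATAAA was in 12.1% against 13.7%. Both strands were searched, and each motif was counted whether or not it overlapped another. The windows had a median GC content of 57.8% in subunit genes and 57.7% in all. These are matches of letters, not measured binding.

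The windows of 4 genes are given as examples picked by hand, including the highest complex V subunit and both forms of a complex IV subunit described above. They are not a typical sample, since 30 of the 66 genes held an NRF1, ETS or YY1 match. Atp5k (chr5:108434350-108434649, minus strand) and Cox6a1 (chr5:115348909-115349208, minus strand) hold an NRF1 and an ETS match each, and Atp5k also holds the oestrogen-related receptor letters and TGCTGA, which are not in capitals. Cox8a (chr19:7217567-7217866, minus strand) holds 2 ETS matches, and its heart and muscle counterpart Cox8b (chr7:140900397-140900696, minus strand) holds a TATAAA and none of the others. Capitals mark the NRF1, ETS, YY1 and TATAAA letters on either strand, and each window reads 5′ to 3′ along the gene.
Atp5k: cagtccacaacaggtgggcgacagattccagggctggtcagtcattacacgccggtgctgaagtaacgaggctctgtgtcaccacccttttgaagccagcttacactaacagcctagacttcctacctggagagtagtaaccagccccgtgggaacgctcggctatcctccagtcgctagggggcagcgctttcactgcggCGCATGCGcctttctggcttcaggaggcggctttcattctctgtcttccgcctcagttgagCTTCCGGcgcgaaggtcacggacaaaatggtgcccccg
Cox6a1: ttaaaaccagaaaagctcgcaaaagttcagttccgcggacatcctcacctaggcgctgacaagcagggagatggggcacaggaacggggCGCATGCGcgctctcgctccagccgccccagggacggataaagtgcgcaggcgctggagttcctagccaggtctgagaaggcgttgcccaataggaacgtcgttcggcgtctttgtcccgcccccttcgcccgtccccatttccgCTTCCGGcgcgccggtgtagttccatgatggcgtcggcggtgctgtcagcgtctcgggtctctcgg
Cox8a: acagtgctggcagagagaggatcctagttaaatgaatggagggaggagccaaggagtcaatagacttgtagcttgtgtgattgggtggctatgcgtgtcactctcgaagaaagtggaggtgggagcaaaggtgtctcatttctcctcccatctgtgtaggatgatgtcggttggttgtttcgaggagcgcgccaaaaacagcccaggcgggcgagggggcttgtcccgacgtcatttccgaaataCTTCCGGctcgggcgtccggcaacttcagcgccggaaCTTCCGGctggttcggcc
Cox8b: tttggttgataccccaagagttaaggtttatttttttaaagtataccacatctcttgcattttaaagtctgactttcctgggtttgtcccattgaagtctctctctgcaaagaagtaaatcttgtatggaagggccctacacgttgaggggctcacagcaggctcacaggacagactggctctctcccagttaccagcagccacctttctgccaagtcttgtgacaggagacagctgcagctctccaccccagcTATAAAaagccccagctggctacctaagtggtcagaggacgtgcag

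Markers of retinal cell types spanned wider ranges on the same arrays. Their lists were chosen with earlier results of these data known, so their directions are not independent support. The 14 rod markers had a median of -0.68, and their mean level was 9.70 and 9.66 in knockout, against 10.59 and 10.55 in control. All 11 reactive gliosis markers lay above 0 (median 1.08), with means of 6.73 and 6.80 in knockout and 5.83 and 5.76 in control, and 4 of them were called. Of 15 microglia and macrophage markers 12 lay above 0 (median 0.38), with means of 6.07 and 6.12 in knockout and 5.62 and 5.69 in control, and 2 were called. In the cone list 4 of 10 lay above 0 (median -0.13), and the Müller glia list had a median of 0.06. Over all genes 49.0% lay above 0, and 0.139% were called higher and 0.0618% lower. Besides Gnat1, the rod markers Reep6 and Gnb1 fell by 1.99 and 1.47 on the log2 scale, while the cone genes Gnb3 and Gnat2 rose by 1.59 and 1.10, the gliosis genes A2m, Osmr and Stat3 by 1.44, 1.299 and 1.08, and the microglial genes Ctss and Tyrobp by 1.53 and 1.12, all called by limma. Of the 12 markers called in all, Gnat1 and Reep6 were called with the replicate block and with either knockout array left out, and the other 10 were not. Leaving out either control array left 0 of the 12 called by limma, with all 12 at an unadjusted p under 0.05. Clu, with the smallest p among Müller glia markers, stood at 0.89 and was not called. The part of these shifts in the subunit values was not tested.

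**Figure D4:**
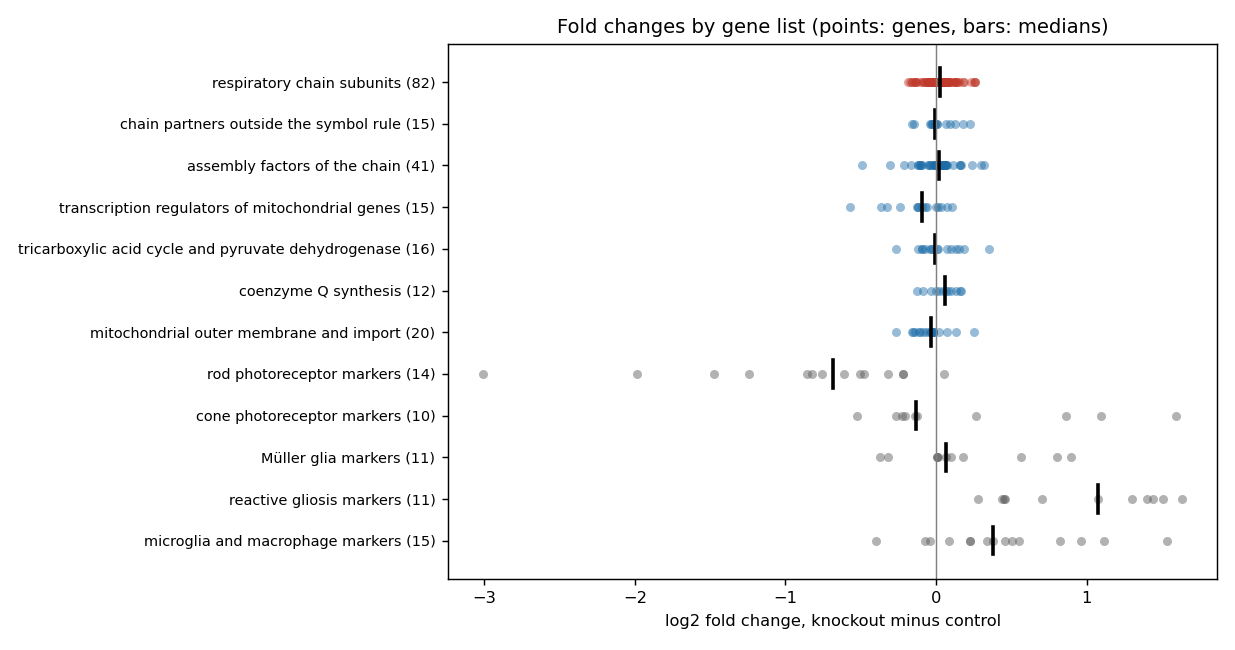
Log2 fold changes (knockout minus control, x axis) of the genes of each list (rows, number measured in brackets), with the subunits in red, mitochondrial lists in blue and cell type markers in grey. Points are genes and bars medians. The 82 subunits span -0.19 to 0.26, while rod markers reach -3.01 and gliosis markers 1.64.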

How the data were processed

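Each of 4 arrays has a log2 value for 21897 probe sets, as deposited. Affy and limma are named, without version or role, per the submitters' processing notes; neither background correction nor normalization is described in the labels. The log2 scale was read from the values (1.34 to 12.75), and the scale was kept. Names came from the platform annotation, in which 20877 probe sets have 1 symbol, 175 several and 845 none; only the first entered, and the probe set with the highest mean stood for a gene, which gave 19421 genes.

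The genotypes were set against each other by limma 3.58.1 under R 4.3.3 (lmFit, eBayes, two-sided), genotype being the only term, with Benjamini-Hochberg adjustment over all genes and a call at an adjusted p under 0.05. Intervals are the 95% intervals of that fit. The steps were run on simulated data with independent noise and no sex or replicate effect. The planted shifts were larger than any subunit difference here, so the simulation does not show what shifts of that size would give. No animal was shared between arrays, and the spread between pools of a group enters each SE, interval and p-value. The eBayes step also draws the variance of each gene toward a value estimated from all genes. Where pools lay close together, the SE therefore rests largely on that shared value. Ndufv3 had SDs of 0.013 in knockout and 0.005 in control, yet an SE of 0.10. Uqcrc2, with SDs of 0.003 and 0.005, had the same rounded SE. By Xist the pools of each group differed in sex, so the spread between pools includes any difference between the sexes. The number of arrays limits precision. An exact permutation test cannot go below 0.333 here.

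The members and lists were chosen with earlier results of these data known. The rule for named genes took the catalytic or core subunits, the ends of each complex, the 6 smallest p, the restricted isoforms with their counterparts, genes with probe sets of both signs, and from other lists up to 3 called genes or the one with the smallest p. Other lists covered bipolar, amacrine, horizontal and ganglion cells (14 genes, median -0.10, 0 called, Calb1 -0.37), pigment epithelium (8, -0.08, 0 called, Rpe65 -0.41), and lens and blood (6, 0.04, 0 called, Crygs -0.53). Over all genes 0.201% were called. Alternatives were a replicate block, leaving out each array, quantile normalization, median centring, a signal filter at the 50th percentile, the mean of probe sets, a variance trend and a robust prior.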

Additional observations from a re-analysis of the deposited data

How the results depend on the processing

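The count of called subunits was 0 under all 11 alternatives, with 0 to 2 at an unadjusted p under 0.05, and 0 of the 36 named subunits was called under any of them. The count of subunits whose interval lay within 1.5-fold of no change, chosen after the data were seen, was 82 with all arrays and genes. It was 79 of 79 with the signal filter, beside 93.5% of all genes kept, and was lower than 82 when 1 array was left out. Over all genes, 39 calls became 8 with the replicate block, 89 with the signal filter and 128 with a variance trend, and 0 to 11 when 1 array was left out. The count of 0 was reached without control replicate 1 (limma, 1355 genes at an unadjusted p under 0.05) and without control replicate 2 (1328 genes). The labels do not say that a replicate number marks a shared litter or day, and deviations of same-numbered arrays correlated at r = 0.24 over all genes and 0.07 over the subunits; the block left the subunit count at 0 and changed no median.

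When 1 array was left out, medians ran from -0.034 to 0.074 for all subunits, -0.042 to 0.078 for complex I, -0.089 to 0.042 for complex II, -0.071 to -0.040 for complex III, 0.062 to 0.13 for complex IV and -0.020 to 0.082 for complex V, so that the sign held in complexes III and IV. The lowest and highest values came without control replicate 2 and without control replicate 1, apart from the highest in complexes II and V, which came without knockout replicate 2. Among the 36 named subunits, these changed sign when 1 array was left out (range in brackets): Atp5a1 (-0.034 to 0.060), Atp5b (-0.049 to 0.14), Atp5h (-0.035 to 0.068), Atp5l (-0.051 to 0.20), Atp5md (-0.080 to 0.24), Cox4i2 (-0.054 to 0.16), Cox5a (-0.20 to 0.023), Cox6a1 (-0.090 to 0.065), Cox6b1 (-0.045 to 0.10), Cox6b2 (-0.022 to 0.013), Cox7b (-0.033 to 0.12), Cox8c (-0.29 to 0.24), Ndufa4l2 (-0.11 to 0.21), Ndufb11 (-0.0053 to 0.020), Ndufs1 (-0.082 to 0.043), Ndufv1 (-0.018 to 0.19), Sdhb (-0.037 to 0.15), Uqcr11 (-0.067 to 0.27) and Uqcrfs1 (-0.032 to 0.13). With other settings the sign turned in 4 genes that lay near 0. Median centring gave -0.0052 for Atp5a1, -0.0018 for Atp5h and -0.011 for Ndufb11. Quantile normalization gave -0.0056 for Atp5h and 0.012 for Cox6b2, and the mean of all probe sets gave -0.016 for Atp5h and -0.035 for Ndufb11. Centring each array on its median set the median of all genes at -0.02 and that of the subunits at 0.01, with 45 above 0 and 37 below. The causes were not tested. The number of arrays limits the width of every interval.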
